A study of Mus musculus with 6 samples.

Results

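Alternative 5' splice site extensions are the stretches of exon that lie between a nearer and a farther donor site of the same exon. They were sought among 368092 exonic parts, the pieces into which the annotation cuts every exon at each annotated exon edge. A part was taken when it belonged to a single gene, adjoined another part of that gene only on its upstream side by strand, listed fewer transcripts than that neighbour, and had only transcripts with further parts downstream. This annotation rule, which used no count, found 11658 extensions in 6576 genes. Of these genes 3678 held 1 extension, 1648 held 2, 709 held 3 and 541 held 4 or more, so extensions of a gene share its transcripts. The mirror rule for alternative 3' splice sites found 10019 parts.

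The series compared 3 libraries labelled WT control, with the genotype given as wild type, with 3 labelled KO, a knockout of CD2BP2, all polyadenylated RNA of mouse podocytes on a C57BL/6 background. The targeting text places a loxP site downstream of exon 3 of Cd2bp2. The treatment text of the labels describes CD2BP2flox/flox MxCre+ mice aged 6 to 10 weeks and littermate controls, both given poly (I:C), and cultured bone marrow macrophages, while the source of every library is given as podocytes. No Cre line for podocytes is named in the labels, nor whether libraries came from separate animals, so the spread behind each p-value is that of these libraries alone and may be technical.

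The library totals ranged from 186022084 to 255554573 part counts, of which 2.49% to 2.53% fell in extensions. Cd2bp2 stood at 59.9 CPM, its counts scaled to the library total, in each WT library and at 48.3 to 52.5 CPM in KO, so its transcript was present in all libraries labelled KO. The rule found no Cd2bp2 extension. The 8 podocyte markers used here summed to 17791 to 20164 CPM in WT and 16523 to 18294 CPM in KO, with the slit diaphragm gene Nphs1 at 1927 CPM or more in every library. Endothelial markers (6 genes) summed to 5933 to 6553 CPM, so other glomerular cells contributed RNA. Markers of the distal nephron, from the loop to the collecting duct (8 genes) summed to 170 to 322 CPM in WT and to 523, 1408 and 267 CPM in KO1, KO2 and KO3. Those of the proximal tubule (7 genes) summed to 354 to 631 CPM in WT and 625 to 913 CPM in KO, and those of macrophages (6 genes) to 84.7 to 114 CPM in WT and 174 to 192 CPM in KO. The part of these differences in any ratio below was not tested.

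A 5' splice site, or donor, is the boundary at which an exon ends and its intron begins, and nearly all introns begin with GT. U1 small nuclear RNA pairs with the donor first, and U6 and the U5 particle then take over the exon end in the assembled spliceosome. CD2BP2 is a U5 protein that leaves before the spliceosome becomes active. Where an exon has 2 donors, use of the nearer one removes the extension with the intron, and use of the farther one keeps it in the messenger RNA. The first bases of an extension are therefore the intron start of the nearer donor, and should read GT if the boundary is a donor. When the extension is coding, its length decides whether the reading frame is kept.

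The label was checked against the annotation and the sequence. In 4039 extensions (34.6%) the transcripts without the extension went on to a further exon, as a choice between donors requires. In the other 7619 (65.4%) no neighbour transcript that lacked the extension had a part downstream, so those transcripts ended at the boundary. These are called the continuing and the ending class here. Sequence could be read for 10362 extensions. Those of the continuing class began with GT in 2641 of 3101 cases (85.2%) and with GC, the commonest variant donor, in 210 (6.8%). Those of the ending class began with GT in 288 of 7062 (4.1%), close to the 4.67% of all dinucleotides within extensions that read GT, and with GC in 476 (6.7%). The share with GT thus set the classes apart, and the share with GC over all members did not. Most of the continuing class began with GT, so these shares do not compare GC among the members without GT. For the ending class, 65.4% of all members, the data thus go against the name. The 2 classes are described apart, except in the gene lists, which pool them.

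The boundaries below show the difference, each as the last bases of the neighbour in lower case and the first bases of the extension in capitals, at most 20 of them. The first 6 are of the continuing class, named in the results for their ratios or as GT and GC examples, and each begins with GT except that of Wnk4, which begins with GC. Vegfa encodes the main endothelial growth factor of podocytes, Lmx1b a transcription factor of podocyte identity, Traf2 an adaptor of tumour necrosis factor receptors, Hspa5 the endoplasmic reticulum chaperone BiP, Srxn1 sulfiredoxin, which repairs oxidised peroxiredoxins, and Wnk4 a kinase that controls salt transport in the distal tubule.
Vegfa: agaaatcccgGTTTAAATCCTGGAGCGT
Lmx1b: caaatgccagGTGACCACATGAACCCCTAT
Traf2: gcatcctcagGTGTGCATCCATTCTCTCCA
Srxn1: caaggaagagGTATGGGGCTACGCGCGGGT
Hspa5: cctattcctgGTAAGTG
Wnk4: ggagcagcggGCAAGCAAGGGGGTGACATT
The next 5 are of the ending class, chosen among its named members, and none of them begins with GT or GC, though those of Fyn and Sdc1, not shown, begin with GC. Nrxn2 encodes a neurexin, Slc2a10 a facilitative transporter of the glucose transporter family, Snx15 a sorting nexin, Dmac2 a factor of mitochondrial complex I assembly and Prpf8 the scaffold protein of the U5 particle.
Nrxn2: tgacctttgaGAGTCCTGAGGCCTTTGTCG
Slc2a10: ccatggcttgCTGTATCTACGTGTCAGAAT
Snx15: ctgcccaggaGGCCTTGGACCTTCTCTTCA
Dmac2: cctggacgacTGGTGCCTCAGCCGCCTCTA
Prpf8: ctactgtagaCAAGACTGTTTGCAAAAAGA

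Further features separated the classes. The neighbour ended in AG, as exons commonly do before a donor, in 45.0% of the continuing class and in 7.9% of the ending class. The extension itself ended in AG in 46.9% and 56.5%, so the outer boundary looked like an exon end in both. The hexamers GTAAGT or GTGAGT, searched only on the transcript's strand at the first base of the extension, opened 337 of 2780 continuing extensions of 6 or more bases (12.1%) and 2 of 6660 ending ones. In the continuing class 1445 of 3163 extensions with sequence (45.7%) were wholly coding, and in the ending class 6596 of 7199 (91.6%). Of coding extensions, 45.1% were a multiple of 3 bases long in the continuing class and 32.8% in the ending class. Lengths that keep the frame were thus commoner where the shorter transcripts went on, as a description with no test.

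Extensions had a median length of 51 bases (quartiles 19 and 103, from 1 to 5089), and 1828 (15.7%) were under 10 bases. A length of 4 bases was by far the commonest among the short ones of the continuing class, with 298 of 4039 (7.4%), against 101 of 1 base, 65 of 3 bases and 94 each of 5 and 6 bases. In the ending class 93 of 7619 (1.2%) had 4 bases. Among 185 extensions of 4 bases in the continuing class with sequence, GTAG made up 44 (23.8%), GTGA 27, GCAG 24 and GTAA 22. Such a pair of donors, set 4 bases apart, changes the reading frame when it lies in coding sequence. The plot of lengths by class shows the peak at 4 bases in the continuing class.

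**Figure D1:**
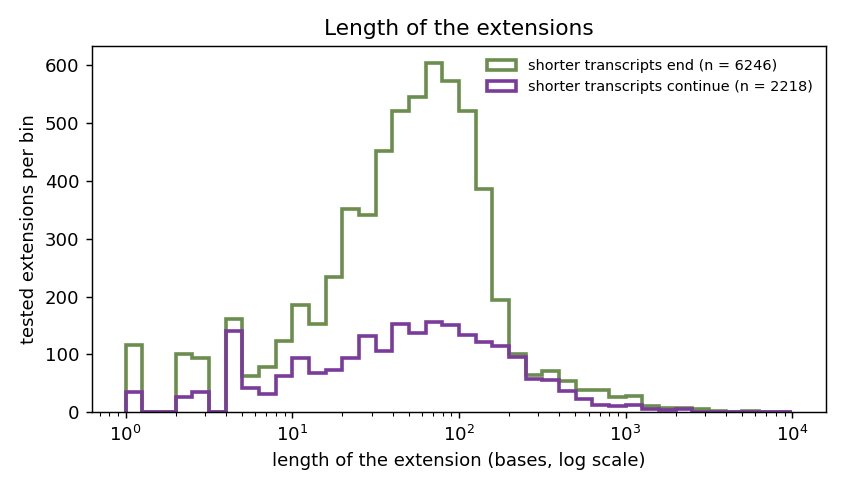
Histogram of the length of the tested extensions (x axis, bases, log scale; y axis, number per bin) for those whose shorter transcripts continue (purple, n = 2218) and those whose shorter transcripts end (green, n = 6246). The purple line has a peak at 4 bases and otherwise a broad range, while the green line rises to its highest bins near 100 bases.

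The measure throughout is the ratio of the read count of the extension to that of its upstream neighbour in the same library. Whether a read that spans 2 parts was counted in both is not given in the sources used here. Very short parts held many counts, such as 2502 to 3530 in a 2-base part of Wt1 and 2623 to 3686 in the 7-base part that adjoins it. Reads were thus counted in parts that hold only a piece of them, and adjoining short parts may share reads. Reads of unspliced RNA also fall in an extension, so retention of the intron and use of the farther donor cannot be told apart. Of the 11658 extensions 956 had 0 counts in all libraries. With at least 10 counts on average in the neighbour and enough counts in the extension, 8464 (72.6%) in 4791 genes were tested and 3194 were not. Those tested comprised 2218 of the continuing class (54.9%) and 6246 of the ending class (82.0%). The tested extensions had a median of 264 counts and their neighbours of 331. Every base was covered in all libraries in 93.2% of the continuing and 98.8% of the ending extensions tested.

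The ratio of counts per base moved with length: its median over the continuing class in WT was 5.88 for extensions under 10 bases, 1.13 for 10 to 100 bases and 0.360 for over 100 bases. The classes were therefore compared where both parts were over 100 bases. There the extension had a median of 0.663 of the neighbour's counts per base in the WT libraries in the continuing class (quartiles 0.161 and 1.06, n = 264 extensions). In the ending class the median was 0.990 with quartiles 0.827 and 1.16 (n = 456). Most long ending extensions were thus read at the level of the exon they continue, while the continuing ones ranged from nearly absent to full inclusion. In KO the medians were 0.598 and 0.977.

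**Figure D2:**
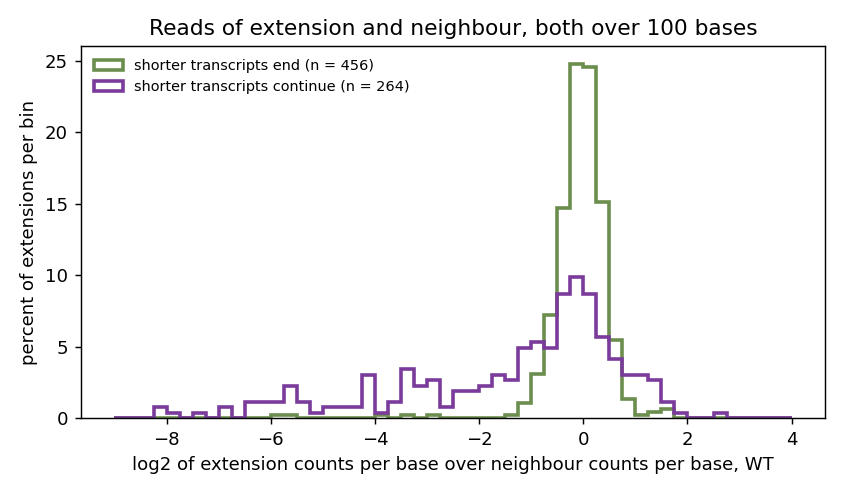
Distribution of the log2 ratio of counts per base in the extension to counts per base in the neighbour (x axis), as percent of the extensions of each class (y axis), where both parts are over 100 bases. Counts were summed over the WT libraries before the ratio was taken. Extensions whose shorter transcripts end (green, n = 456) peak at 0, equal reads, and those whose shorter transcripts continue (purple, n = 264) spread to far lower ratios.

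The level in the continuing class went with the sequence of the inner donor. Where both parts were over 100 bases, extensions that open with GTAAGT or GTGAGT, close matches to U1, had a median ratio per base of 0.412 in WT (quartiles 0.106 and 0.595, n = 27). Those that open with any other GT had 0.713 (0.212 and 1.11, n = 148), and those that do not open with GT 0.927 (0.735 and 1.09, n = 27). The medians were lower the closer the inner site was to the donor consensus, and the quartile ranges overlapped. Coding extensions of that length had a median of 0.955 (n = 66) and those in 5' untranslated regions 0.679 (n = 45), so the level differed by region as well. These medians describe the members, and no test was made over them.

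The comparison of the KO and WT libraries asks whether the choice between the boundaries differed with the CD2BP2 knockout. No extension passed edgeR's quasi-likelihood test of the ratio (Benjamini-Hochberg adjusted p under 0.05 over all adjoining pairs), 0 of 8464, where 1 of 68459 adjoining pairs passed (0.00146%), and the smallest adjusted p of an extension was 0.184. At an unadjusted p under 0.05 there were 220 extensions (2.60%), 108 higher and 112 lower in KO, against 5.71% of all pairs (2.93% higher and 2.78% lower). The continuing class had 112 of 2218 (5.05%), 51 higher and 61 lower, and the ending class 108 of 6246 (1.73%). Neither share was above the background, but within the continuing class it differed by length and region. Extensions over 100 bases had 58 of 682 (8.50%), 22 higher and 36 lower. Of these, those in 5' untranslated regions had 19 of 156 (12.18%) and coding ones 7 of 181 (3.87%). Where the neighbour was over 100 bases as well, the share was 17 of 264 (6.44%). It was then 2 of 45 (4.44%) in 5' untranslated regions and 2 of 66 (3.03%) for coding ones, so the higher shares went with short neighbours. Extensions under 10 bases had 3.76% and those of 10 to 100 bases 3.44%. The cause of these differences was not tested. limma on the log2 ratio called 0 extensions as well, with 273 at an unadjusted p under 0.05 against 6.17% of pairs, and DESeq2 called 3 of 8464, against 0.409% of all pairs, with 97 at an unadjusted p under 0.05 against 4.44% of pairs.

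The ratios stayed close to their WT values. The median log2 change was 0.00 over the extensions, with 5th and 95th percentiles of -0.22 and 0.22, and 98.5% lay within 1.5-fold of WT. In the continuing class the percentiles were -0.40 and 0.42 and 95.3% lay within 1.5-fold, and in the ending class -0.15 and 0.16 and 99.6%. Changes of at least 2-fold were estimated for 15 of 8464 extensions upward and 8 downward, where 205 and 182 of all 68459 pairs had them. The continuing class held 15 and 5 of these, and the ending class 0 and 3. The KO ratios lay all above the WT ratios in 435 extensions (5.14%) and all below in 454 (5.36%), where all pairs had 5.62% and 5.45%. In the ending class these shares were 5.08% and 5.09%, while its share at an unadjusted edgeR p under 0.05 was 1.73%. The test may be conservative for that class, which was not tested. The median ratio over extensions was 0.880, 0.874 and 0.879 in the WT libraries and 0.878, 0.878 and 0.873 in the KO libraries, and in the continuing class it ranged from 0.605 to 0.619, with overlapping groups. The median 95% interval of a log2 change reached 0.17 to either side. In simulated counts, with changed extensions drawn from both classes, 1.5-fold changes were recovered in 7.5%, 2-fold in 68.7% and 4-fold in 95.5%. These shares do not carry over to the real test. The simulation had 132 calls and the real data 1, and fewer calls make the adjusted threshold stricter. The median SE was 0.125 in the continuing and 0.063 in the ending class. Changes of 2-fold could therefore be missed as well as small ones, and none of those estimated at 2-fold or more was called.

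**Figure D3:**
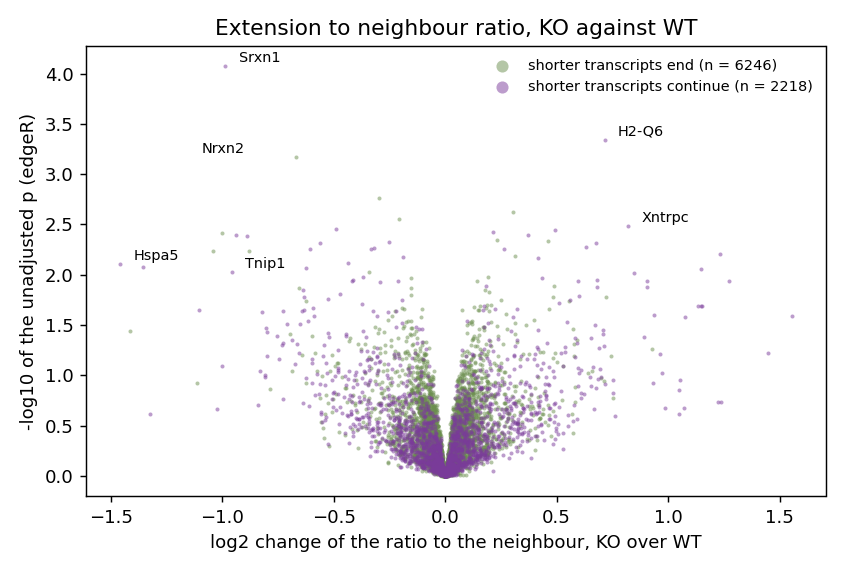
Log2 change of the extension to neighbour ratio, KO over WT (x axis), against the -log10 of the unadjusted edgeR p (y axis) for each tested extension, purple where the shorter transcripts continue (n = 2218) and green where they end (n = 6246). The purple points spread more widely than the green, and none of the 8464 points passes after adjustment.

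The extensions with the smallest p were of the following genes, none of them past the test. The test takes the neighbour count as fixed, so its counting error enters an SE only through the spread between libraries. Where the neighbour holds few counts, the SE and interval given may be too narrow. The coding extension of Srxn1 (chr2:151931475-151931683, + strand, NCBIM37, 209 bases) had ratios to its 9-base neighbour of 13.9, 17.2 and 16.0 in WT and 7.03, 8.14 and 7.92 in KO. The groups did not overlap (log2 change -0.98, SE 0.10, edgeR adjusted p = 0.184). The neighbour held 11, 9 and 11 counts in WT and 38, 28 and 24 in KO, while the extension held 153, 155 and 176 and then 267, 228 and 190. Both parts were higher in KO and the short neighbour by more, so the value rests on few counts. DESeq2 called it (adjusted p = 1.585e-07), and against the rest of the gene the log2 change was -0.21 (edgeR adjusted p = 0.854).

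Of the remaining 4 with the smallest p among lower ratios, 3 were of the ending class. The 305-base coding extension of Nrxn2 (chr19:6473452-6473756, + strand) had ratios of 2.85, 2.57 and 2.71 in WT and 1.68, 1.80 and 1.56 in KO, over neighbour counts of 13 to 36 (log2 change -0.67, SE 0.10, edgeR adjusted p = 0.396). Slc2a10 had 2.65, 2.58 and 2.58 in WT and 2.15, 2.20 and 2.01 in KO (log2 change -0.29, and -0.08 against the rest of the gene). Snx15 had 1.75, 1.71 and 1.69 in WT and 1.46, 1.51 and 1.49 in KO (log2 change -0.21, and -0.11 against the rest of the gene). In each of these the WT and KO values were apart, which the choice by small p favours. The KO ratios lay all below WT in 5.45% of all pairs. The Slc43a2 extension, which lies in the 5' untranslated region of an amino acid transporter gene and is of the continuing class, had 4.22, 3.88 and 3.91 in WT and 2.67, 2.96 and 2.65 in KO over neighbour counts of 8 to 31. Its log2 change was -0.49 against the neighbour and 0.19 against the rest of the gene, so its direction depends on the reference count.

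Among higher ratios, the smallest p belonged to a 9-base extension of H2-Q6 (chr17:35565085-35565093, + strand), an MHC class I gene. Its ratios were 0.0102, 0.0101 and 0.0108 in WT and 0.0188, 0.0146 and 0.0176 in KO (log2 change 0.72, SE 0.10, edgeR adjusted p = 0.352). DESeq2 called it (adjusted p = 7.765e-05), as did edgeR with the rest of the gene as the reference (adjusted p = 0.00720). MHC class I genes are near-identical copies that can share reads, so these values are uncertain. The coding extension of Dmac2, of the ending class, had 1.12, 1.09 and 1.22 in WT and 1.39, 1.44 and 1.42 in KO (log2 change 0.30, and 0.07 against the rest of the gene). The 138-base 5' untranslated extension of Xntrpc had 0.843, 0.553 and 0.750 in WT and 1.39, 1.15 and 1.21 in KO (log2 change 0.82). The 241-base, partly coding extension of Btf3, a nascent chain factor, had 0.0103, 0.00994 and 0.0104 in WT and 0.0159, 0.0140 and 0.0132 in KO, and it overlaps another gene. None of these 4 groups of KO values overlapped WT, which the choice by small p favours, and none passed. The KO ratios lay all above WT in 5.62% of all pairs.

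The next genes stand for the pathways of the podocyte, with no extension called in any list. The lists pool both classes. From here on the extensions of Fyn, Limk2, Sdc1, Pxn, Prpf8, Hnrnpd, Nfkbib, Tnfrsf1b, Hspa4l and Casp4 are of the ending class. So are those of Cubn, Slc34a3, Scnn1a, Atp6v0d2, Vegfd, Tek and Wt1, the coding one of Aar2 and the 105-base one of Acin1. Over the continuing class alone, list medians other than that of heat shock and stress ran from -0.024 to 0.105. Counts at an unadjusted p under 0.05 are to be read against 2.93% higher and 2.78% lower over all pairs. Of 29 tested extensions of slit diaphragm and podocyte identity genes, 1 was higher and 0 lower at an unadjusted p under 0.05, and the median log2 change was 0.01, against 0.00 over all pairs. The 1 was the 21-base coding extension of Lmx1b (chr2:33420581-33420601, - strand), which keeps the frame. Its ratio was 0.215, 0.205 and 0.195 in WT and 0.232, 0.228 and 0.258 in KO (log2 change 0.22, SE 0.07, edgeR adjusted p = 0.798), which puts the KO libraries just above WT. In Fyn, the kinase that phosphorylates nephrin, the ratio was 0.911 to 0.933 in WT and 0.940 to 0.963 in KO (log2 change 0.05). In Tdrd5 it was 0.936 to 0.968 in WT and 0.865 to 0.926 in KO.

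Of 93 tested extensions of actin regulators, 1 was higher and 1 lower at an unadjusted p under 0.05, with a median log2 change of 0.00. The 46-base extension of the formin gene Fmnl2 had ratios of 0.565, 0.536 and 0.543 in WT and 0.645, 0.640 and 0.621 in KO (log2 change 0.22, edgeR adjusted p = 0.587). The 10-base extension of Rock2, a kinase of actomyosin contraction, held 13 to 22 counts in WT and 4 to 12 in KO beside 819 to 1162 of its neighbour (log2 change -1.10, 95% interval -1.99 to -0.22). In Limk2, which encodes a cofilin kinase, the ratio was 1.22 to 1.24 in WT and 1.06 to 1.15 in KO (log2 change -0.14, and -0.02 against the rest of the gene). Of 57 tested extensions of basement membrane and adhesion genes, 0 were higher and 1 was lower, that of Col18a1, the collagen that yields endostatin. Its 741-base extension (chr10:76574963-76575703, - strand) had ratios of 0.547, 0.596 and 0.527 in WT and 0.477, 0.446 and 0.402 in KO (log2 change -0.33, SE 0.08, edgeR adjusted p = 0.624). The extension held 6935 to 10428 counts, so its spread was that between libraries and not of counting. In the same list Sdc1 (log2 change 0.18) and the focal adhesion gene Pxn (-0.09) followed.

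**Figure D4:**
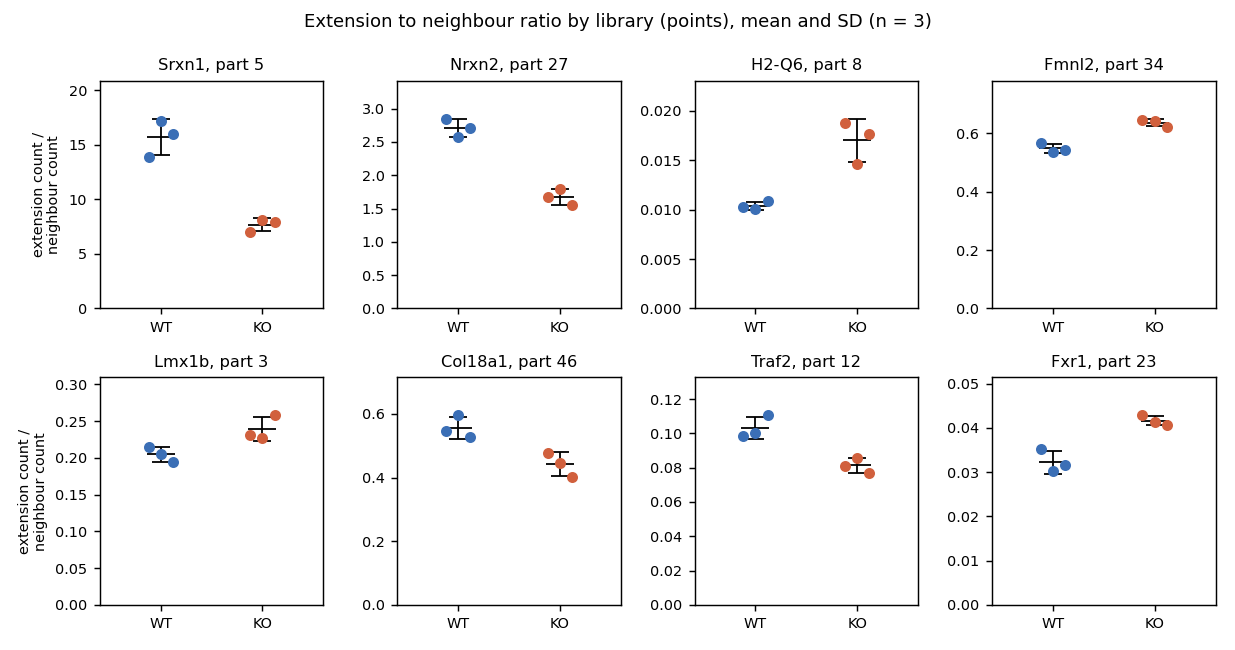
Ratio of extension count to neighbour count (y axis, from 0) in each WT (blue) and KO (orange) library, with the mean and SD of each group (n = 3), for 8 of the extensions named for a small p in the test or in their list. In all 8 the WT and KO points do not overlap, which the choice by small p favours, and none of these passes the test across all pairs. Over all pairs the KO ratios lay all above WT in 5.62% and all below in 5.45%.

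Genes of the spliceosome itself were covered by 3 lists. Of 19 tested extensions of U5 and tri-snRNP protein genes, 0 were higher or lower at an unadjusted p under 0.05. The median log2 change was 0.01, or 0.105 over the 6 of the continuing class. Prpf8 had ratios of 0.882, 0.950 and 0.851 in WT and 0.853, 0.855 and 0.865 in KO, with overlapping groups. Aar2, a chaperone that holds PRPF8 during U5 assembly, had 1.46, 1.33 and 1.37 in WT and 1.19, 1.32 and 1.27 in KO for its 384-base coding extension. The log2 change of the coding extension was -0.14, and -0.06 against the rest of the gene, and that of the 37-base 5' untranslated extension was 0.31, or 0.17 without WT2. Of 60 core spliceosome extensions, 1 was higher and 0 lower (median log2 change 0.01), that of Prpf40b, whose neighbour is 3 bases long and whose extension held 18 to 32 counts (log2 change 0.56, and 0.24 against the rest of the gene). The 2 Acin1 extensions had log2 changes of 0.16 and 0.06, the latter -0.08 against the rest of the gene.

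Of 93 tested extensions of SR protein, hnRNP, regulator and kinase genes, 1 was higher and 1 lower, with a median log2 change of 0.01. The 4-base extension of Fxr1, which encodes an RNA-binding protein, had ratios of 0.0351, 0.0301 and 0.0315 in WT and 0.0428, 0.0413 and 0.0407 in KO (log2 change 0.37, SE 0.08, edgeR adjusted p = 0.601). The 89-base extension of Hnrnpd, of the ending class, had 1.16 to 1.20 in WT and 1.08 to 1.13 in KO (log2 change -0.09, and -0.005 against the rest of the gene). The 126-base extension of Srsf5 had 0.572 to 0.632 in WT and 0.625 to 0.689 in KO, so the groups overlapped.

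In the lists of stress and death, 56 extensions of inflammation and NF-kB genes were tested, of which 3 were higher and 2 lower at an unadjusted p under 0.05, where 5.71% of all pairs passed that mark (median log2 change 0.00). Tnip1, which encodes an inhibitor of NF-kB signalling, had ratios of 0.232, 0.400 and 0.393 in WT and 0.148, 0.180 and 0.193 in KO over 18 to 36 counts (log2 change -0.96, edgeR adjusted p = 0.699). Nfkbib, an inhibitor of NF-kB, had 1.08 to 1.12 in WT and 1.19 to 1.24 in KO (log2 change 0.14, and 0.08 against the rest of the gene). The receptor gene Tnfrsf1b had 0.839 to 0.965 in WT and 1.04 to 1.06 in KO, with a log2 change of 0.25 that turned to -0.07 against the rest of the gene. The macrophage markers were also higher in KO, with the sums given above. Of 22 extensions of heat shock and stress genes, 1 was higher and 1 lower (median log2 change 0.00, or -0.4 over the 5 of the continuing class). The 7-base extension of Hspa5 held 25, 33 and 37 counts in WT and 7, 8 and 12 in KO beside 8402 to 18693 of its neighbour (log2 change -1.46, 95% interval -2.36 to -0.56, edgeR adjusted p = 0.672). The inner GTAAGTG of this exon, printed above, was thus read through in few reads in every library. Hspa4l had 0.741 to 0.785 in WT and 0.828 to 0.929 in KO, and Hspd1 2.33 to 3.02 and 3.08 to 3.78. The Hspd1 log2 change was 0.31 against the neighbour, 0.20 without WT2 and 0.06 against the rest of the gene.

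Of 32 extensions of apoptosis and p53 genes, 0 were higher or lower at an unadjusted p under 0.05 (median log2 change 0.02). The 21-base extension of Traf2 (chr2:25394365-25394385, - strand), which keeps the frame, had ratios of 0.099, 0.10 and 0.11 in WT and 0.081, 0.086 and 0.077 in KO (log2 change -0.34, SE 0.10, edgeR adjusted p = 0.906). Daxx had 0.867 to 1.21 in WT and 1.26 to 1.75 in KO, and Casp4 0.983 to 1.02 and 0.883 to 0.962. Against the rest of the gene the log2 change of Daxx was 0.24 in place of 0.45, and that of Casp4 turned from -0.10 to 0.10. For Bcl2l1, whose coding exon is a textbook alternative donor choice between the long survival form and the short death-promoting form, the rule found only an extension in the 5' untranslated region. Its ratios of 2.95, 2.67 and 2.63 in WT and 2.87, 3.07 and 2.59 in KO overlapped (log2 change 0.05, 95% interval -0.15 to 0.24), and the direction turned without KO2 (-0.01) and against the rest of the gene (-0.20).

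Tubule genes gave no value past an unadjusted p of 0.05. Of 32 extensions of proximal tubule genes the median log2 change was 0.00, with -0.60 for Cyp4b1, or -0.38 without KO3, -0.57 for Cubn and 0.32 for Slc34a3. Cubn held 1 count over 3 of its neighbour in WT2, and its log2 change was -0.10 with limma, -0.30 against the rest of the gene and -0.37 without WT3. That of Slc34a3 was 0.16 without WT1 and 0.18 without KO3. Of 10 extensions of distal nephron genes the median was 0.02. The sodium channel gene Scnn1a had 0.18, which turned to -0.28 against the rest of the gene. Atp6v0d2 had 0.41, or 0.14 without WT1, with 82 of its counts in KO2, without which its neighbour averaged too few counts to be tested. Wnk4 had 0.16, or 0.24 without WT1, 0.10 without KO2 and 0.08 against the rest of the gene. The GC donor of Wnk4 had ratios of 1.31, 1.08 and 1.10 in WT and 1.18, 1.38 and 1.31 in KO, and the groups overlapped while the tubule marker sum of KO2 was the highest of the 6 libraries.

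Of 26 extensions of VEGF, angiopoietin and FGF genes, 0 were higher or lower at an unadjusted p under 0.05 (median log2 change -0.01). Vegfd (log2 change -0.13), the angiopoietin receptor gene Tek (0.07) and Sema3b (-0.26) were those with the smallest p. Against the rest of the gene Vegfd had -0.07 and Sema3b -0.08, and without WT2 Vegfd had -0.08 and without KO3 Sema3b -0.16. No extension of Fgfr1 was tested. The 18-base extension of Vegfa (chr17:46159226-46159243, - strand) closes the exon that encodes heparin-binding residues, which hold the growth factor in the matrix, and keeps the frame. Its ratio to the 54-base neighbour was 0.759, 0.756 and 0.761 in WT and 0.753, 0.742 and 0.751 in KO (log2 change -0.02, 95% interval -0.08 to 0.04, edgeR adjusted p = 1.0). The balance of the 2 donors was therefore nearly the same in all libraries.

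The whole Vegfa exon behaved otherwise. The 18-base extension took 1.97%, 1.96% and 2.07% of the gene's counts in WT and 1.27%, 1.27% and 1.15% in KO, and its neighbour 2.60%, 2.60% and 2.72% in WT and 1.68%, 1.71% and 1.53% in KO. Both parts of the exon had lower shares in every KO library. Against the rest of the gene, the extension fell, with a log2 change of -0.71 (SE 0.04, edgeR adjusted p = 1.023e-04). That test was passed by 2 of the 8464 extensions and 0.11% of all pairs, and 322 extensions had an unadjusted p under 0.05, against 6.38% of pairs. In diffSpliceDGE, which compares each part with the other parts of its gene and called 0.0443% of all parts, the extension had a log2 change of -0.70 (adjusted p = 0.0660) and the neighbour -0.69 (adjusted p = 0.0936), so neither passed. The other 25 tested Vegfa parts had log2 changes of -0.33 to 0.21. The exon parts on either side, of 30 and 132 bases, took 4.49 ± 0.05% and 7.25 ± 0.17% in WT and 4.57 ± 0.11% and 7.08 ± 0.06% in KO (SD, n = 3 each).

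In Wt1, a transcription factor of podocyte identity, a pair of donors 9 bases apart decides whether the residues lysine, threonine and serine (KTS) stand between the last zinc fingers. The annotation splits these bases into a 2-base part, which adjoins parts on both sides, and the 7-base extension (chr2:105010169-105010175, + strand), so the rule's ratio does not measure the choice itself. Their boundary is shown here because it falls inside the KTS bases and not at a donor.
Wt1: tcatacaggtAAAACAA
The ratio of the 7-base to the 2-base part was 1.04 to 1.05 in all libraries, and these 2 short parts may share reads. Over the 84-base part upstream, a comparison added after the values were seen, the 7-base part had a ratio of 0.373, 0.377 and 0.358 in WT and 0.382, 0.383 and 0.392 in KO. The KO values lay just above those of WT, at 1.04 times on average (exact two-sided permutation test, p = 0.10, the smallest that 3 against 3 libraries allow).

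**Figure D5:**
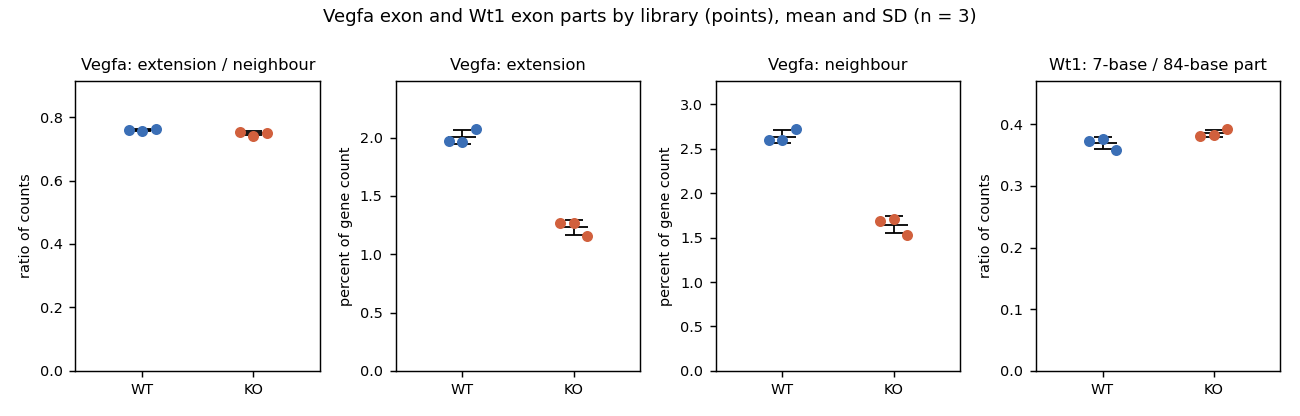
From left to right, the ratio of the Vegfa extension to its neighbour, the percent of Vegfa counts in the extension, the percent in the neighbour, and the ratio of the Wt1 7-base part to the 84-base part (y axes from 0), by WT (blue) and KO (orange) library with mean and SD (n = 3). The Vegfa ratio is level between the groups while both parts take a smaller percent of the gene in KO, and the Wt1 ratio differs by 1.04 times.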

How the data were processed

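Per the labels, polyadenylated RNA of podocytes was sequenced in 3 WT and 3 KO libraries. The authors deposited, per exonic part, a raw read count and the covered fraction of its bases, on Ensembl 67 and NCBIM37 per the file headers. TopHat 1.4.1 is named in the submitters' processing notes, beside GRCh37, which is not a mouse build. How reads were counted, and whether by strand, is not given in the sources used here, so antisense reads cannot be told apart. The members, gene lists and named extensions were chosen with earlier results of these data known.

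The extension count was tested with edgeR 4.0.16 (R 4.3.3; quasi-likelihood test) with the log of the neighbour count plus 0.5 as offset, over 68459 adjoining pairs kept by filterByExpr and a neighbour mean of at least 10 counts, all 6 libraries, no covariates. Adjusted p-values are Benjamini-Hochberg over all pairs. Limma 3.58.1 and DESeq2 1.42.0, other references, filters, a replicate block and leaving out each library were alternatives. On simulated counts, 18 of 132 calls were false. Counts of replicates differed by more than sampling noise, so no library was a duplicate. Intervals are 95%.

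The rule named extensions of Wt1, Bcl2l1, Vegfa, Fgfr1 and Cd2bp2, those past the test (there were 0), the 5 of smallest p in each direction, and up to 3 of each list. Rhof was chosen after its values were seen.

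Symbols were matched by Ensembl identifier for 31300 of 35981 single genes. Boundary sequences and coding spans came from the transcripts of GENCODE M21 (GRCm38), read by transcript identifier and offset where the spliced length equals that in the files; no coordinate was converted. A further podocyte marker is not reported here.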

Additional observations from a re-analysis of the deposited data

How the results depend on the processing

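Of 19 alternatives, 17 called 0 extensions, among them limma, diffSpliceDGE with TMM or RLE normalization, other filters and pseudocounts, extensions of 10 or more bases, and the continuing class alone. With each library left out in turn the counts ranged from 0 to 0 in each direction. DESeq2 called 1 higher (H2-Q6) and 2 lower (Srxn1 and Rhof, whose extension overlaps another gene; log2 change -0.999), with the adjusted p not given for 177. The rest of the gene as reference called 1 higher (H2-Q6) and 1 lower (Vegfa); the cause was not tested. The replicate block called 0. Deviations of the ratios correlated at -0.002, -0.011 and 0.039 for same-numbered libraries, and from -0.033 to 0.035 for others. The ratios thus showed no pairing by number. An effect that acts alike on both parts cancels in the ratio, so they cannot exclude that libraries were paired. Of 890 values of 49 named extensions, 866 kept their direction uncalled, 5 were called and 19 had the opposite direction. These 19 were uncalled. With the rest of the gene, diffSpliceDGE with TMM and with RLE, they were -0.198, -0.197 and -0.197 for Bcl2l1 (and from -0.012 without KO replicate 2 to 0.108 without KO replicate 3), -0.084, -0.083 and -0.082 for Acin1 part 23, -0.069, -0.043 and -0.044 for Tnfrsf1b, -0.283, -0.253 and -0.253 for Scnn1a, 0.097, 0.083 and 0.083 for Casp4, and 0.185, 0.132 and 0.131 for Slc43a2; the cause was not tested.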
